A study of Homo sapiens with 12 samples.

Results

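The genes that bring pyruvate into mitochondria and turn it through the citric acid cycle were examined in chromatin accessibility data from MIAPaCa2, an established line of pancreatic ductal adenocarcinoma cells. The module held 34 of the 59094 RefSeq genes on chromosomes 1 to 22 and X. They were chosen for their place in the pathway, with earlier results of these data known. The assay was ATAC-seq, which uses a transposase, Tn5, to cut and tag DNA that is not packed away. There were 4 groups of 3 libraries each, namely parental cells that were untreated, parental cells that were treated with oxamate, oxamate-resistant cells that were untreated, and oxamate-resistant cells that were treated. Oxamate is an inhibitor of lactate dehydrogenase A (LDHA), and treatment was 10 mM for 24 h against phosphate-buffered saline. The resistant cells were the population that survived 10 mM oxamate over 4 weeks, so the phenotypes also differ in culture history. All groups shared the same line and growth medium. The labels do not say that replicates came from separate cultures, so the p-values measure only the spread between these libraries, which may be technical.

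Pyruvate is the end product of glycolysis. LDHA reduces it to lactate in the cytosol, while the mitochondrial pyruvate carrier takes it to the pyruvate dehydrogenase complex, which makes acetyl-CoA. Kinases switch that complex off and phosphatases switch it back on. Citrate synthase joins acetyl-CoA to oxaloacetate, the cycle enzymes oxidise the product, and citrate that leaves the mitochondrion is cleaved to feed lipid synthesis.

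The lists held 45748 to 62414 peaks per library and covered 13.8 to 33.7 Mb. They gave no read counts. Relative depth, recovered from the background within each list, spanned 1 to 2.77 times the shallowest library, and the treated parental libraries (1.67 to 2.77) lay above the treated resistant ones (1 to 1.13). The smallest peak width, which follows fragment length, was 67 to 87 bases in the parental libraries and 94 to 124 bases in the resistant ones, and the median gene-end peak was 533 to 862 and 822 to 1071 bases wide. Fragment length therefore moved with the phenotypes, and depth did so in treated cells. Peak numbers overlapped (45748 to 62414 in parental and 47681 to 59062 in resistant libraries). Covered totals were 13.8 to 25.5 Mb in parental and 21.3 to 33.7 Mb in resistant libraries. The part of these measures in the results was not tested. The labelled line was checked at its epithelial keratins: KRT8 and KRT18 had a gene-end peak in 12 of 12 libraries, the ductal keratin KRT7 had it in 1, and the leukocyte gene PTPRC, the T cell gene CD3E and the endothelial gene PECAM1 had it in 0.

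To show the DNA that the peaks at gene starts cover, the 250 bases upstream of 6 listed starts are given for 5 of the members called below. They were picked to show a start covered in every library (MPC1), a gene with several listed starts (PDK2), starts covered in part in some libraries (ACO1, SUCLA2) and a listed start with no peak (IDH2). The sequences are from RefSeq (GRCh38.p14), read 5′ to 3′ in the direction of the gene, and capitals mark matches on either strand to 7 motifs, none of which holds another: the GC box GGGCGG, the CCAAT box, the ETS core CCGGAAG, the NRF1 motif part GCGCATG, the TATA box TATAAA, the E-box CACGTG and the AP-1 motif TGANTCA. They lie at chr6:166382941-166383190 (MPC1, minus strand), chr17:50094487-50094736 and chr17:50095101-50095350 (both PDK2, plus strand), chr9:32384393-32384642 (ACO1, plus strand), chr13:48001274-48001523 (SUCLA2, minus strand) and chr15:90100622-90100871 (IDH2, minus strand).
MPC1: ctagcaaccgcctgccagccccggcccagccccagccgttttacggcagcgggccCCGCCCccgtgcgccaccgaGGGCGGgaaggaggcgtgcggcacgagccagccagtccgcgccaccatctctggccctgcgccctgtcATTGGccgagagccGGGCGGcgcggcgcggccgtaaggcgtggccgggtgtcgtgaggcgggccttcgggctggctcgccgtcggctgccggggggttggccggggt
PDK2 upstream start: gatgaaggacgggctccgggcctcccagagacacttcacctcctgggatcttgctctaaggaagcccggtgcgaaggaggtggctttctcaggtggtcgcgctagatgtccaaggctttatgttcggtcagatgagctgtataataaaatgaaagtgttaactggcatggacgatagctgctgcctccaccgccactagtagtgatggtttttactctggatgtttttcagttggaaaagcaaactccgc
PDK2 downstream start: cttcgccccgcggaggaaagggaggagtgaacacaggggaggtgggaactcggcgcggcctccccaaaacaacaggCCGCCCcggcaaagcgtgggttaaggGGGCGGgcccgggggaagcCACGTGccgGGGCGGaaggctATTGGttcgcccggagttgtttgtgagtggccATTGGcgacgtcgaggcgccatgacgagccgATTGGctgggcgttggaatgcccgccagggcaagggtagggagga
ACO1: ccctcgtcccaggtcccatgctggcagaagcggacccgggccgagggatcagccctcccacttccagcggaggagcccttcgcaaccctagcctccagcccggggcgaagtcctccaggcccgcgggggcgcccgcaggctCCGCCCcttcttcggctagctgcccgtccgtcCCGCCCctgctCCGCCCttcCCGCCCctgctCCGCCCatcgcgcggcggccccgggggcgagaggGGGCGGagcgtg
SUCLA2: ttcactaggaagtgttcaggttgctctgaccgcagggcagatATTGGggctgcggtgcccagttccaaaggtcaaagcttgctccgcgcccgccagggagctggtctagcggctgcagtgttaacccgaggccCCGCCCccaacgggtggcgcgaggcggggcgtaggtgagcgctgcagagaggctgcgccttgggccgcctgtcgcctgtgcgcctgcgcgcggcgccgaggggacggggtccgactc
IDH2: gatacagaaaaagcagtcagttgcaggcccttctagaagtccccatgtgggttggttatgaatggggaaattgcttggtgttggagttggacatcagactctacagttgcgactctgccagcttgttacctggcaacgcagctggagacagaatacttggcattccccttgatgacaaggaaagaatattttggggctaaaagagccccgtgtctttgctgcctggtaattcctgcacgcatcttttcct
Every base of the MPC1 stretch lay in a peak in 12 of 12 libraries, and the IDH2 stretch had no covered base in any. The stretch at the upstream PDK2 start was covered whole in the 6 resistant libraries and in 20 to 242 of its 250 bases in the parental ones. The upstream PDK2 stretch held no match to these motifs and 51.2% G and C, whereas the downstream stretch held 3 GC boxes, 3 CCAAT matches and 1 E-box.

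Nearly the whole module was open at a gene end. In 12 of 12 libraries an end of the span had a peak no more than 1 kb away for 32 of the 34 members (94.1%), against 10986 of 19970 protein-coding genes (55%). The exceptions were PDPR, with such a peak in 8 libraries, and PCK1, with no covered base in its span extended by 5 kb in any of the 12 libraries. RefSeq listed 44 starts for 31 members, of which 35 had a peak in 12 libraries, 5 in some and 4 in none. No promoter entry was used for PDP1, PCK1 and OGDH.

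Of the listed starts without a peak in all libraries, several belonged to genes that were open elsewhere. PC, the carboxylase that makes oxaloacetate from pyruvate, had a peak in 12 libraries at its outer start and in 0 at its 2 inner starts. PDK1 had a peak in 2 libraries at its outer start and in 12 at the start further in. The listed start of IDH2 had no peak, and the 12-library peak of that gene had its middle 1832 bases upstream, at the annotated end of the span, next to the divergent transcript IDH2-DT. The gene-end values of IDH2 therefore describe that shared end. The same limit holds for members whose end lies within 1 kb of another gene in a single peak region. Members called below by fold are among them, including MPC1 with MPC1-DT, PDK2 with LOC124904024 and PDK4 with PDK4-AS1. Further cases are PDHX with APIP, IDH3G with SSR4, MDH2 with STYXL1 and SLC25A1 with CLTCL1.

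**Figure D1:**
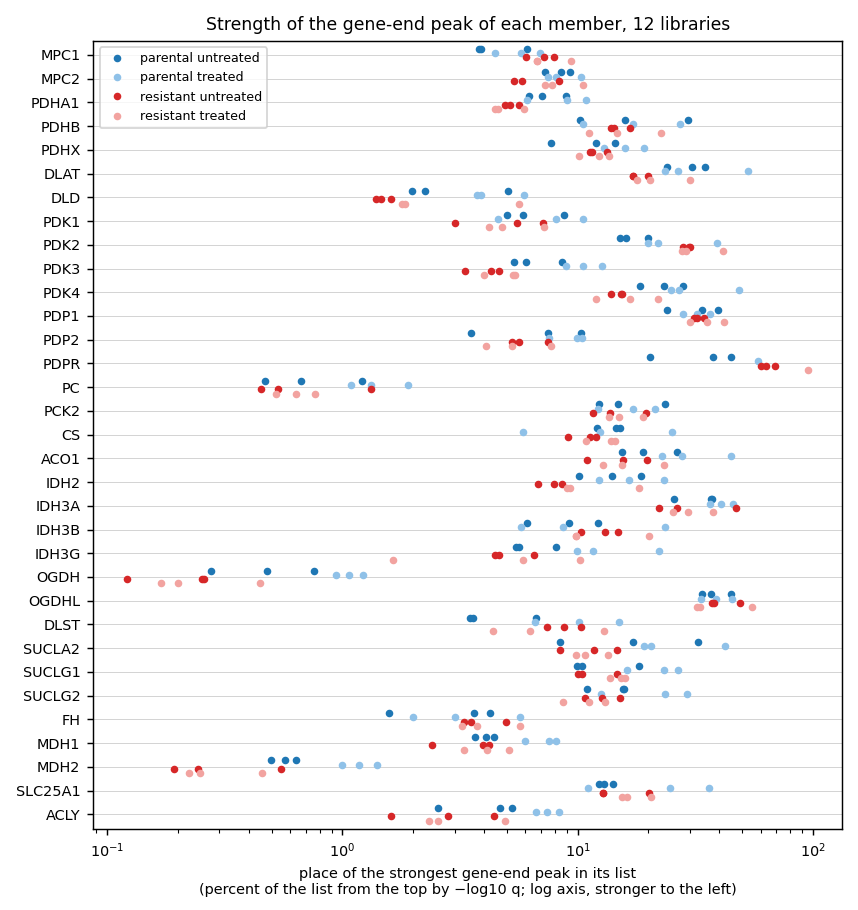
Place of the strongest gene-end peak in its own list, for the 33 members with such a peak, as the percent of the list from the top by −log10 q on a log axis (stronger to the left). Points are single libraries in the colours of the 4 groups. OGDH, MDH2 and PC lie within the top 2 percent in all 12 libraries, and OGDHL lies below the top 32 percent in all of them.

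The members differed widely in the strength of that peak. The order by median place in the list began with OGDH, the decarboxylase of the alpha-ketoglutarate dehydrogenase complex (0.363% from the top, range 0.122 to 1.22% over 12 libraries), MDH2, the mitochondrial malate dehydrogenase (0.523%, 0.193 to 1.41%), and PC (0.718%, 0.452 to 1.9%). The ranges of these 3 overlapped, so their order among themselves is not separated by the libraries. DLD, the dihydrolipoyl dehydrogenase shared by both complexes, followed at 2.11% (1.39 to 5.91%). At the other end were PDP1 (32.9%, 23.9 to 41.7%), IDH3A, the catalytic subunit of the NAD-dependent isocitrate dehydrogenase (36.7%, 22.1 to 47.3%), and OGDHL, a paralogue of OGDH (37.6%, 32.3 to 55%), whose ranges also overlapped. The peak lay in the top 10 percent of the list in all 12 libraries for 8 of 32 members (25%), against 18.5% of the 15646 genes with a gene-end peak in every library.

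Within the extended spans of the members the 12 lists formed 203 separate regions. Of these, 56 (27.6%) were called in 12 libraries and 83 (40.9%) in a single library, whereas over the whole genome 13.6% and 59.5% of 178040 regions fell in those classes. Of 44 regions at gene ends 33 were called in 12 libraries, and of 133 regions inside genes 11 were. A body call, meaning any covered base more than 1 kb from both ends, can include the edge of a peak at a gene end. Such a call was present in 12 libraries in 9 members (MPC2, PDHX, PDK1, PDK2, PDPR, PC, OGDH, SUCLG2 and ACLY), most of them long genes. For MPC2 the separate region inside the gene was called in 4 libraries, and the rest came from the peak at its start. For ACLY the 12-library region covers its listed starts. Body calls were absent from 12 libraries in 10 members (PDHB, DLAT, PDK4, PDP1, PCK1, CS, IDH3A, SUCLA2, FH and SLC25A1). In the other 15 they were present in 1 to 11 libraries.

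No region of the module was called in 6 of 6 libraries of a phenotype and 0 of 6 of the other. In 6 regions every library of a group, and no library of a group compared with it, had a peak, where 3.02% of all regions had such a pattern. All 6 lay inside genes and had fold values of 3.06 to 5.73. The region inside MPC2 was called in the 3 untreated resistant libraries, in 1 treated resistant library and in no parental library. PDHX, the subunit that anchors the dihydrolipoyl dehydrogenase to the complex, held 3 of the regions. Of these, 2 were called in 3 of 3 untreated parental and 0 of 3 untreated resistant libraries, and the third was called in 6 of 6 resistant libraries and in 1 parental library. Inside OGDH a region was called in the 3 treated resistant libraries alone, and inside PDPR a region was called in 5 parental libraries and 1 resistant library. For presence, Fisher's exact test (two-sided) was applied to genes called in 5 to 7 libraries. At gene ends 0 of 1136 genes passed (percent called 0; 122 had an unadjusted p under 0.05 for phenotype and 11 for treatment), and 0 members were in the range tested. In gene bodies 0 of 2267 genes passed (percent called 0; 170 and 37 at an unadjusted p under 0.05), which included the 3 members tested, MPC1, DLST and MDH2. The body calls of MPC1 came from peaks at its start that passed the 1 kb line, except in 1 library with a separate region inside the gene.

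Covered bases, the number of bases of the extended span that lie in a peak, were compared after scaling each library to the mean covered total. Between resistant and parental cells, averaged over treatment, 2 of 33 members tested passed a Benjamini-Hochberg adjusted p of 0.05 in limma, namely IDH2 higher and PDPR lower (6.06%, where 6.6% of 29020 genes were called, 4.91% higher and 1.69% lower). The median member difference was -0.07 on the log2 scale and that of all genes 0.02. In the treated cells alone 1 member, PDPR, was called (8.34% of all genes), and in the untreated cells 0 were (0.062% of all genes). Without scaling, the median of all genes moved to 0.41, the genes called went from 1426 higher and 489 lower to 9766 higher and 86 lower, and the members called went to 14 higher and 0 lower, so every difference in covered bases here is relative to the total of the library.

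The fold of the strongest gene-end peak over its local background, taken relative to the median of the library, was available for 32 members. Between the phenotypes 5 members had a higher fold in resistant cells (DLAT, PDK4, ACO1, IDH2 and SUCLA2) and 4 a lower fold (MPC1, MPC2, PDK2 and FH). These 9 are 28.1% of the members tested, where 24.6% of 15646 genes were called (9.48% higher and 15.1% lower), so the share lay near that of all genes. Fold changes were small, between 0.775 and 1.31 times. Without centring, the median of all genes was 0.16 on the log2 scale, the genes called were 5260 higher and 477 lower in place of 1484 and 2368, and the members called were 12 higher and 0 lower. With single libraries left out, MPC1, PDK2 and PDK4 were called in 12 of 12 fits, DLAT in 10, ACO1 in 9, SUCLA2 in 7, MPC2 in 6, FH in 4 and IDH2 in 3. The 5 higher members were called without centring too, and the 4 lower ones kept their sign but were not. On the place of the peak in its list, in percentile points, none of the 9 passed, while PDK3 and ACLY, which were not among them, did.

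**Figure D2:**
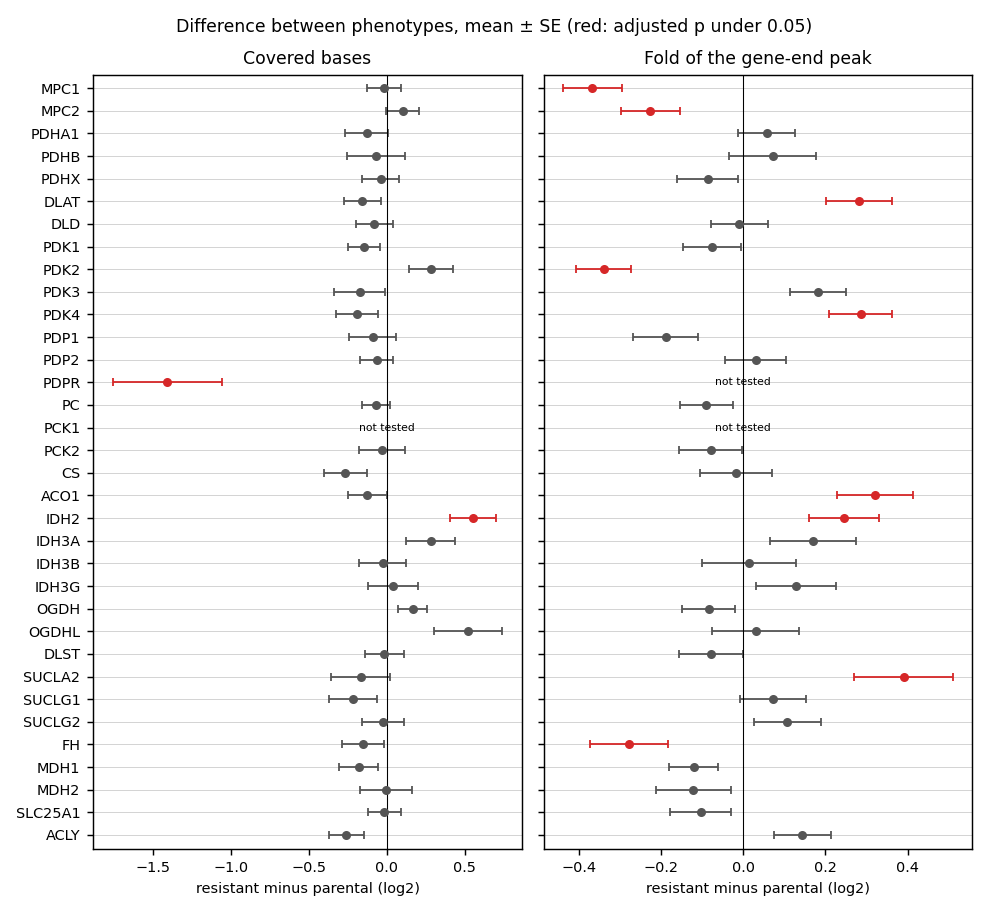
Difference between resistant and parental cells (log2, averaged over treatment) for each member in scaled covered bases (left) and in the centred fold of the gene-end peak (right), as estimate ± SE from limma over 12 libraries. Red marks an adjusted p under 0.05 over all genes. PDPR lies far below the others on the left, and on the right MPC1 and PDK2 are the lowest and SUCLA2 the highest.

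MPC1 and MPC2 are the subunits of the mitochondrial pyruvate carrier, and both had a lower relative gene-end fold in resistant cells, where 15.1% of all genes did. For MPC1 the fold relative to the library median was 1.35, 1.20 and 1.19 in untreated parental, 1.39, 1.22 and 1.36 in treated parental, 0.934, 1.12 and 0.942 in untreated resistant and 0.980, 0.991 and 1.01 in treated resistant libraries. All 6 resistant libraries were below all 6 parental ones, which was so for 3 of 32 members in either direction and for 5.46% of 15646 genes. The log2 difference was -0.37 ± 0.071 (SE, adjusted p = 0.0035, limma).

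The extent of the MPC1 peak differed as well. At the MPC1 start a second, weaker peak lay further inside the gene in 5 of 6 parental libraries, and in 3 resistant libraries a single peak of 1913 to 2030 bases spanned both. The strongest peak was 846 to 1242 bases wide in parental and 988 to 2030 bases wide in resistant libraries. In the other 3 resistant libraries the peaks were separate, with a strongest peak of 988 to 1295 bases. Their relative folds were 0.991 to 1.12, where the lowest parental value was 1.19. Uncentred, their folds were 7.187, 6.63 and 7.124, within the parental range of 6.905 to 8.877 in all but the second. Whether the lower fold of MPC1 is separate from the merging was not tested. For MPC2 the relative fold was 0.937 to 1.21 in the 6 parental and 0.825 to 1.03 in the 6 resistant libraries. These ranges overlapped, with 4 resistant libraries below all parental ones (-0.23 ± 0.072, adjusted p = 0.032, limma). Its sign turned on the within-list place, where the difference was 0.98 percentile points. Covered bases of MPC2, the carrier subunit with more of them, were 1714, 1517 and 1453 in untreated parental, 1130, 1279 and 1370 in treated parental, 2949, 1898 and 1972 in untreated resistant and 2210, 1793 and 1766 in treated resistant libraries. The unscaled values of the phenotypes did not overlap, but the scaled difference was 0.10 ± 0.106 and was not called.

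Among the pyruvate dehydrogenase complex genes, PDHA1 and PDHB encode the decarboxylase, DLAT the acetyltransferase core, and PDHX and DLD the remaining parts. DLAT was the member called. Its relative fold was 0.869, 0.746 and 0.778 in untreated parental, 0.713, 0.863 and 0.903 in treated parental, 1.00, 0.959 and 1.06 in untreated resistant and 1.01, 0.881 and 1.00 in treated resistant libraries. The phenotypes overlapped by 1 resistant library, and the log2 difference was 0.28 ± 0.080 (adjusted p = 0.020, limma). PDHA1, PDHB, PDHX and DLD were not called, with differences between -0.09 and 0.07 on the log2 scale. PDHX had the most covered bases of these genes, at 4324, 4683 and 3427 in untreated parental, 1807, 2966 and 2169 in treated parental, 6153, 3657 and 3316 in untreated resistant and 5724, 2776 and 3795 in treated resistant libraries. The phenotypes overlapped, while the treated parental libraries lay below the untreated parental ones, and the scaled difference of PDHX between the phenotypes was -0.04 ± 0.119.

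The pyruvate dehydrogenase kinases phosphorylate the complex and so inhibit it, and 2 of the 4 were called, 1 in each direction, where 24.6% of all genes were called. PDK4, the kinase best known for its induction by fasting, had a relative fold of 0.987, 0.809 and 0.916 in untreated parental, 0.741, 0.884 and 0.882 in treated parental, 1.03, 1.12 and 1.07 in untreated resistant and 1.12, 1.00 and 1.01 in treated resistant libraries. All 6 resistant libraries lay above all 6 parental ones (0.29 ± 0.077, adjusted p = 0.016, limma). PDK2, a widely expressed kinase, had 0.920, 0.886 and 0.856 in untreated parental, 0.764, 0.786 and 0.849 in treated parental, 0.631, 0.675 and 0.687 in untreated resistant and 0.664, 0.674 and 0.660 in treated resistant libraries. All 6 resistant libraries lay below all 6 parental ones (-0.34 ± 0.067, adjusted p = 0.0037, limma).

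The start region of PDK2 also differed in shape. In each of the 6 parental libraries the region chr17:50093882-50095537 held 2 separate peaks, with a gap of 362 to 617 bases over the upstream listed start. In each of the 6 resistant libraries it held a single peak across the first 2 of the 3 listed starts. Bases in peaks were 702, 862 and 812 in untreated parental, 719, 890 and 758 in treated parental, 1313, 1173 and 1311 in untreated resistant and 1474, 1483 and 1637 in treated resistant libraries. The resistant libraries were thus all above the parental ones. Among the 24148 regions called in every library, 0.137% had 1 peak in each resistant library and 2 or more in each parental one, and 0 had the reverse (percent called 0). Of the 56 such regions of the module PDK2 was the single case. The count of separate peaks was chosen after the values were seen. Fold is a value for a whole peak, so the PDK2 comparison sets the stronger of 2 parental peaks (fold 4.33 to 6.22) against 1 merged resistant peak (4.21 to 4.93). The weaker parental peak had a fold of 3.65 to 4.47. Whether the lower fold of PDK2 is separate from the merging was not tested.

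**Figure D3:**
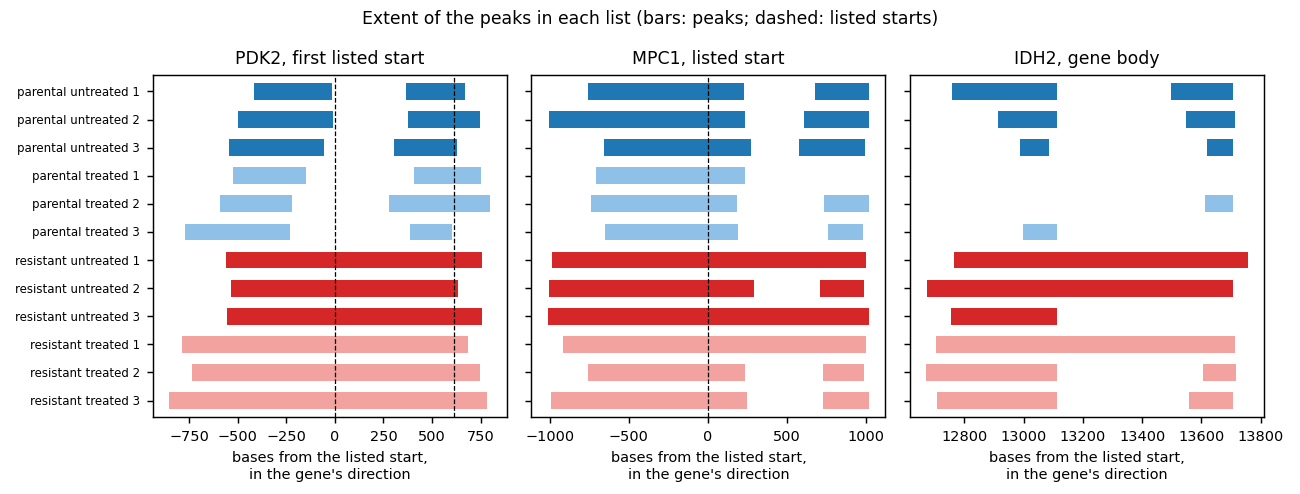
Extent of each peak (bars) in each library (rows, coloured by group) at the starts of PDK2 and MPC1 and at a region inside IDH2, against the distance in bases from the outermost listed start. The 6 parental libraries have 2 separate PDK2 peaks with a gap over the upstream start (dashed lines), and the 6 resistant libraries have 1 peak across it.

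Width of the strongest gene-end peak, a measure added after the values were seen, gave 1 member higher and 4 lower between the phenotypes (15.6%, where 17.4% of 15646 genes were called, 5.31% higher and 12% lower). PDK2 was the wider one, by 1.38 ± 0.112 on the log2 scale relative to the library median (adjusted p = 1.4e-04, limma), and it was called in the untreated cells (1.65 ± 0.158, where 0.198% of genes were called) and in the treated cells (1.12 ± 0.158, where 16% were). OGDH, PDHX, PC and ACLY were relatively narrower, by -0.33 (PDHX) to -0.455 (ACLY). Without centring, the members called were 17 wider and 0 narrower (4800 and 3 of all genes). The direction turned for OGDH (0.08), PDHX (0.12) and PC (0.04), and was -0.00 for ACLY, while the PDK2 difference was 1.83. In the other 2 kinases, PDK1 and PDK3, the fold did not pass the test, at -0.08 ± 0.070 and 0.18 ± 0.069. PDK1 had the most covered bases of the kinases, at 3473, 3372 and 3692 in untreated parental, 2331, 2853 and 2775 in treated parental, 4147, 3816 and 3687 in untreated resistant and 3700, 3009 and 4351 in treated resistant libraries. The phenotypes overlapped for PDK1, and before scaling the treated parental libraries lay below all others. After scaling these libraries had 4072, 3542 and 3652, against 3341, 3186 and 4294 in untreated parental ones.

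**Figure D4:**
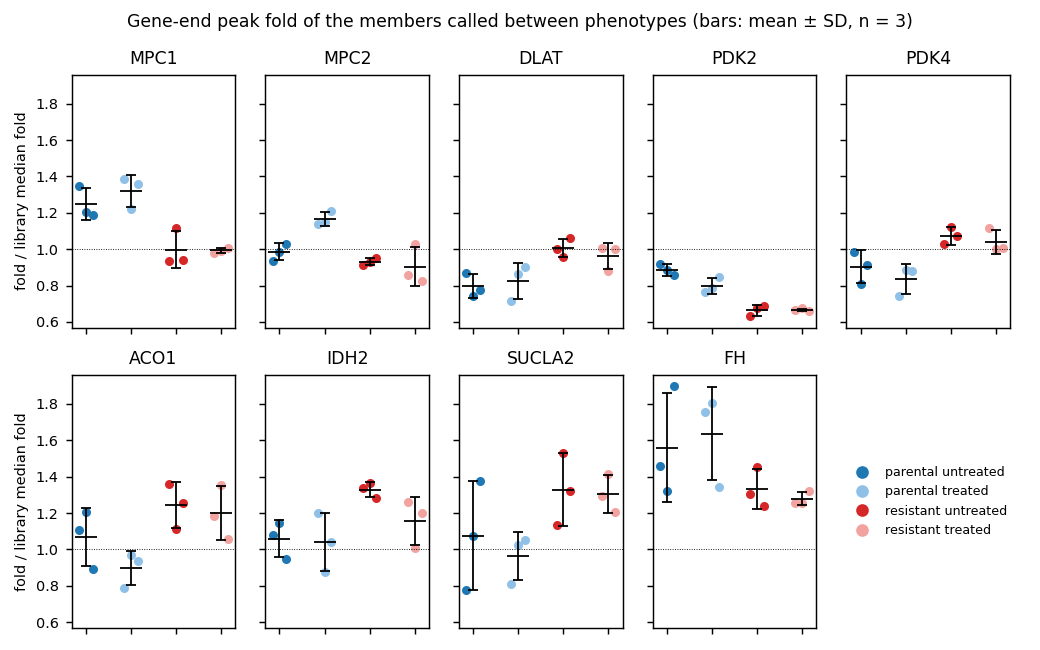
Fold of the strongest gene-end peak divided by the library median, per library (points) for the 9 members called between the phenotypes, with mean ± SD over the 3 libraries of each group. The resistant and parental libraries do not overlap for MPC1, PDK2 and PDK4 and overlap for the other 6.

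The phosphatases reverse the action of the kinases. PDP1 and PDP2, their catalytic subunits, had a gene-end peak in 12 libraries and were not called, with fold differences of -0.19 ± 0.080 and 0.03 ± 0.075. PDP2 had the most covered bases of this group, at 1836, 1478 and 1464 in untreated parental, 981, 1314 and 1100 in treated parental, 1920, 1794 and 1827 in untreated resistant and 1766, 1401 and 1798 in treated resistant libraries. The phenotypes overlapped for PDP2, and before scaling the treated parental libraries lay below all others. After scaling these libraries had 1714, 1632 and 1448, against 1766, 1396 and 1703 in untreated parental ones.

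PDPR, the regulatory subunit, was the member with the lowest difference in covered bases. It had 3028, 1085 and 1337 covered bases in untreated parental, 576, 2393 and 2053 in treated parental, 1370, 2314 and 729 in untreated resistant and 862, 161 and 330 in treated resistant libraries. The lowest values were those of treated resistant replicates 2 and 3, while before scaling treated resistant replicate 1 lay above 1 treated parental library. After scaling the treated resistant libraries had 675.9, 181.6 and 287.5, against 1006, 2971 and 2702 in treated parental ones. The scaled difference was -1.41 ± 0.351 averaged over treatment (adjusted p = 0.031, limma) and -2.27 ± 0.496 in treated cells (adjusted p = 0.015, limma). The covered bases came mostly from weak peaks inside the gene, and a peak at a listed start was called in 2 untreated parental libraries only. When peaks with a −log10 q under 3 were dropped, the differences turned to 0.06 and 0.75, and within 1 kb of the gene ends to 0.08 and 0.12. Left out in turn, 8 of the 12 libraries ended the first call, and treated resistant replicate 2 or 3 ended the second. PDPR also has a pseudogene copy on the same chromosome, PDPR2P, and reads without a unique place were removed, so its values are uncertain.

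**Figure D5:**
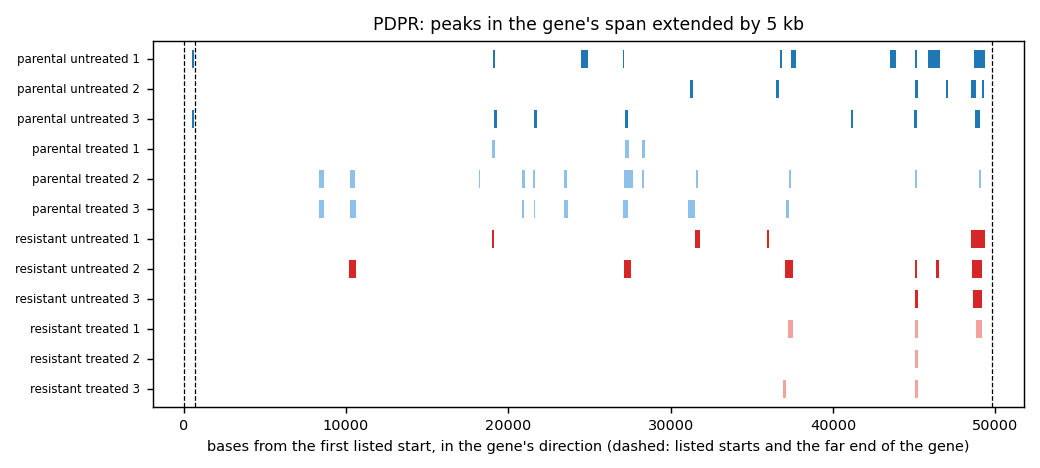
Peaks (bars) in the span of PDPR extended by 5 kb, per library (rows, coloured by group), against the distance in bases from the first listed start. The libraries differ in many small peaks inside the gene, and only 2 untreated parental libraries have a peak at a start.

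PC, PCK1 and PCK2 fill and drain the cycle. PC, which had the most covered bases of the 3, had 3860, 4091 and 3275 in untreated parental, 2591, 3184 and 3032 in treated parental, 4683, 4270 and 3841 in untreated resistant and 5254, 3880 and 4056 in treated resistant libraries. The phenotypes overlapped for PC, and before scaling the treated parental libraries lay below all others. After scaling these libraries had 4526, 3953 and 3990, against 3713, 3865 and 3809 in untreated parental ones. Neither the covered bases of PC (-0.07 ± 0.087) nor its fold (-0.09 ± 0.064) was called. PCK2, the mitochondrial phosphoenolpyruvate carboxykinase, was open at its start in 12 libraries, and its fold differed by -0.08 ± 0.077. PCK1, the cytosolic form known from liver and kidney, had 0 covered bases in each of the 12 libraries.

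Of the 15 enzymes of the cycle, 3 had a higher and 1 a lower relative fold in resistant cells, a share near the 24.6% called among all genes. IDH2, the NADP-dependent mitochondrial isocitrate dehydrogenase, was the member called by both measures. Its covered bases were 1181, 1153 and 617 in untreated parental, 406, 659 and 643 in treated parental, 2170, 1771 and 1163 in untreated resistant and 1780, 1109 and 1340 in treated resistant libraries. The phenotypes overlapped slightly, with 1109 as the lowest resistant and 1181 as the highest parental value. The scaled difference was 0.55 ± 0.150 (adjusted p = 0.042, limma). The relative fold at the IDH2 span end was 1.08, 1.15 and 0.949 in untreated parental, 1.20, 0.879 and 1.04 in treated parental, 1.34, 1.36 and 1.28 in untreated resistant and 1.26, 1.01 and 1.20 in treated resistant libraries. With 5 resistant libraries above all parental ones, the difference was 0.245 ± 0.086 (adjusted p = 0.047, limma). A region inside IDH2, chr15:90086865-90087949, was called in every library but treated parental replicate 1. It was a single peak of 990 to 1032 bases in 3 resistant libraries and 1 or 2 shorter peaks in the others. Both IDH2 calls were close to the threshold. With single libraries left out, the call on covered bases stood in 4 of 12 fits and the call on fold in 3 of 12. Under other settings the call on covered bases stood in 9 of 13, with differences of 0.02 to 0.96, and that on fold in 3 of 4.

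ACO1, the cytosolic aconitase that doubles as an iron-responsive RNA-binding protein, had a relative fold of 1.11, 1.21 and 0.891 in untreated parental, 0.791, 0.968 and 0.937 in treated parental, 1.36, 1.11 and 1.26 in untreated resistant and 1.18, 1.36 and 1.06 in treated resistant libraries. The phenotypes overlapped (0.32 ± 0.093, adjusted p = 0.022, limma). ACO1 also passed in the treated cells (0.415 ± 0.131, adjusted p = 0.039, limma), together with MPC1 (-0.41) and MPC2 (-0.37). These 3 of 32 members compare with 18.5% of all genes. Without centring, 14 members were called higher and 0 lower in the treated cells. The uncentred MPC1 folds were 7.855, 6.905 and 7.11 in treated parental and 6.846, 6.63 and 7.124 in treated resistant libraries. Those of MPC2 were 6.458, 6.506 and 6.336 against 6.009, 6.867 and 5.83, so the phenotypes overlapped for both. SUCLA2, the ATP-forming subunit of succinyl-CoA synthetase, had a relative fold of 0.777, 1.07 and 1.38 in untreated parental, 0.810, 1.02 and 1.05 in treated parental, 1.13, 1.53 and 1.32 in untreated resistant and 1.29, 1.41 and 1.21 in treated resistant libraries. Only 2 resistant libraries were above all parental ones (0.39 ± 0.120, adjusted p = 0.028, limma).

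FH, the fumarase, was the cycle enzyme with a lower relative fold. It had 1.46, 1.32 and 1.90 in untreated parental, 1.76, 1.81 and 1.34 in treated parental, 1.30, 1.45 and 1.24 in untreated resistant and 1.26, 1.26 and 1.32 in treated resistant libraries. Here 5 resistant libraries were below all parental ones (-0.28 ± 0.094, adjusted p = 0.041, limma). The other 11 cycle enzymes did not pass by fold. OGDH, with the most covered bases, had 4916, 5043 and 3423 in untreated parental, 2041, 3231 and 3336 in treated parental, 7290, 4558 and 4877 in untreated resistant and 6226, 4635 and 5343 in treated resistant libraries. The phenotypes overlapped, and before scaling the treated parental libraries lay below all others. After scaling these libraries had 3565, 4012 and 4391, against 4729, 4764 and 3981 in untreated parental ones. OGDH was not called (0.17 ± 0.091). OGDHL differed by 0.52 ± 0.219 and was not called either (adjusted p = 0.15, limma). Its body had a peak in 3, 0, 2 and 3 libraries of the untreated parental, treated parental, untreated resistant and treated resistant groups. These were weak peaks (fold 2.82 to 3.8) at separate places, and no single region was called in more than 3 libraries.

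SLC25A1, the mitochondrial citrate carrier, and ACLY, which splits citrate into acetyl-CoA and oxaloacetate in the cytosol, were not called by covered bases (-0.02 ± 0.106 and -0.26 ± 0.112) or by fold (-0.10 ± 0.075 and 0.14 ± 0.070). ACLY had 3370, 3165 and 2560 covered bases in untreated parental, 2735, 3221 and 2320 in treated parental, 3723, 2678 and 3570 in untreated resistant and 3797, 2971 and 3026 in treated resistant libraries, and the phenotypes overlapped. The listed starts of ACLY had a peak in 12 libraries, but its strongest gene-end peak was a separate one at the annotated span end next to ODAD4, and its fold describes that end.

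The effect of a 24 h exposure to oxamate on these genes depended on the scaling. Unscaled, treated parental cells were lower than untreated ones in 3 of 33 members by covered bases. Uncentred, they were lower in 12 of 32 by fold and 5 of 32 by width, and by all 3 measures 0 members were higher. Over all genes 2553 of 29020, 4490 of 15646 and 1004 of 15646 were lower, and 15, 20 and 3 were higher. In resistant cells 0 members were called by any of the 3 measures. After scaling or centring, by covered bases 0 of 33 members were called in parental cells (1.7% of all genes), 0 in resistant cells (percent called 0; 684 genes had an unadjusted p under 0.05) and 0 for the difference between both responses (0.0138%). At an unadjusted p under 0.05 there were 3, 1 and 1 of 33 members, where 4931, 684 and 2617 of 29020 genes were. By relative fold 0 of 32 members were called in parental cells (0.236% of genes), 0 in resistant cells (percent called 0; 474 genes and 0 members at an unadjusted p under 0.05) and 0 for the difference between responses (percent called 0; 1289 genes and 1 member). The comparison of untreated resistant with untreated parental cells gave 0 members as well (0.205%). By width PDK2 was called in treated against untreated parental cells, with 302, 371 and 322 bases untreated and 343, 524 and 541 treated (0.89 ± 0.158, adjusted p = 0.017, limma; 1.39% of genes), relative to a library median that was lower in the treated libraries. The peak compared was not the same in every library. In treated parental replicate 3 the strongest was the upstream peak (541 bases), and the downstream peak there was 217 bases wide. In the other parental libraries the strongest was the downstream peak. The groups overlapped on the unscaled width, and without centring PDK2 was not called. By width 0 members were called in resistant cells (0.0128% of genes) and 0 for the difference between responses (0.358%).

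The 20 neighbouring genes of the same pathways, which include the succinate dehydrogenase subunits, malic enzymes, aspartate aminotransferases and lipoate enzymes, were set beside the module. A gene-end peak was present in 12 libraries for 19 of them. Between the phenotypes 0 were higher and 2 lower by covered bases (10%, where 6.6% of all genes were called), and 3 were higher and 4 lower by relative fold (36.8% of 19 tested, where 24.6% of all genes were called). In treated cells 1 and 6 were called by these measures, and in the untreated comparison and under oxamate 0 were.

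Motifs were counted from 250 bases before to 50 bases after the outermost listed start of each gene, for 31 members and 27305 genes. GGGCGG was present in 20 members (64.5%, where 44.5% of all windows held it) and CCAAT in 20 (64.5%, where 35.7% held it). CCGGAAG was present in 4 members (12.9% against 10.6%), CACGTG in 3 (9.68% against 7.41%), and GCGCATG (4.68% of all windows), TATAAA (12%) and TGANTCA (7.72%) in 1 each, namely PDHA1, PDK1 and PDPR. No comparison with equally open promoters was made.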

How the data were processed

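Per the labels and the study's methods, the authors aligned reads to hg38 with Bowtie2 2.1.0 and dropped those that were mitochondrial, duplicated or not uniquely placed. Broad peaks were then called in each library with MACS2, whose version is not given in the sources used here. The deposited lists give each peak's fold over background (a ratio), −log10 p-value and −log10 q-value, with q up to 0.1. They hold no read counts, so no count test was run. Peaks outside chromosomes 1 to 22 and X were left out (0.892%).

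Covered bases were summed over RefSeq spans extended by 5 kb, scaled to the mean library total and taken as log2(bases + 100), a scale that understates changes of low genes. Genes with a mean under 100 bases were not tested. Folds and widths of the strongest peak within 1 kb of a gene end were taken as log2 and centred on the library median, for genes with such a peak in 12 libraries. All genes were fitted with limma 3.58.1 (R 4.3.3) on 4 group means, with Benjamini-Hochberg adjustment, and called at an adjusted p under 0.05. Presence was tested with Fisher's exact test (SciPy 1.17.1). Peak width, peak number and gene-end bases were added after the data were seen. The presence test was also run on simulated data. Members and lists were chosen with earlier results of these data known. Members are given with values in every library where they were called, had a region present in 3 of 3 and absent from 3 of 3 libraries of compared groups, had no gene-end peak, or had the most covered bases of their role. Further members named for peak strength or listed starts, and OGDHL, were chosen after their values were seen.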

Additional observations from a re-analysis of the deposited data

How the results depend on the processing

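Fragment length moved with the phenotypes, depth did so in treated cells, and covered totals did so in part. The lists hold no counts, so weak peaks limit what can be compared. Replicate numbers did not pair the libraries as a whole. Same-number correlations of deviations ran from -0.160 to 0.196 for covered bases and from -0.195 to 0.340 for fold, with 2 of 18 over 0.1 in each. Those 2 were untreated with treated resistant cells, at replicate 1 (0.164 and 0.270) and replicate 2 (0.196 and 0.340). At replicate 3 they were 0.0475 and 0.0345. The main fits used no pairing. Of the members' differences, 69 kept sign and side of the threshold under other settings, 30 lost the call and 12 reversed. The cause was not tested.

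The reversals were PDPR covered bases without peaks under a −log10 q of 3, the strict q (0.06, treated 0.75) and near gene ends (0.08, treated 0.12), MPC2 fold by within-list percentile (0.98 points, treated 0.12), and uncentred widths of OGDH (0.08, treated 0.11), PC (0.04, treated 0.02) and PDHX (0.12, treated 0.13).

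Members called by covered bases between the phenotypes, 2 in the report, were 5 with the strict q, 14 unscaled, 1 scaled by chromosome, 1 unfiltered and 0 near gene ends. In treated cells, 1 in the report, they were 6, 14 and 2 in the first 3 of these settings, and unscaled oxamate in parental cells gave 3. By fold they were 2 by percentile, and uncentred 14 in treated cells and 12 for oxamate in parental cells. By width they were 17, 13 and 5 uncentred for the phenotypes, treated cells and oxamate in parental cells, and 3 in treated cells with the replicate block.

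Over all genes, covered bases between the phenotypes (1915) gave 7954 with the strict q, 3318 with equal list lengths, 9852 unscaled, 1057 in protein-coding genes and 995 near gene ends. In untreated cells (18) the same settings gave 93, 86, 36, 1 and 6, with 38 at 10 kb, 2 at pseudocount 10 and 11 unfiltered. In treated cells (2419) the strict q gave 8977, no scaling 10230, protein-coding genes 1377 and gene ends 1242. For oxamate in parental cells (492) these were 1745, 2568, 322 and 305, and in resistant cells (0) the strict q gave 3. For the difference between responses (4) they were 474 with the strict q, 13 with equal lists, 8 unscaled, 2 shifted to the median, 7 at 1 kb, 18 at 10 kb, 31 and 1 at pseudocounts 10 and 500, 1 unfiltered, 1 with the replicate block and 36 near gene ends. By fold, percentiles gave 1601 between the phenotypes (3852), 0 in untreated cells (32), 1580 in treated cells (2887) and 92 for oxamate in parental cells (37). Uncentred folds gave 17 in untreated cells, 7404 in treated cells, 4510 for oxamate in parental cells and 148 for the difference between responses (0). Distance 2 kb gave 53 in untreated cells, and the replicate block gave 18 for oxamate in parental cells. By width, uncentred values gave 4803 between the phenotypes (2716), 83 in untreated cells (31), 4613 in treated cells (2507), 1007 for oxamate in parental cells (218) and 164 for the difference between responses (56). The replicate block gave 1531, 17 and 758 in the first 3 of these. Presence at gene ends by phenotype (0) gave 67 with the strict q.

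With single libraries left out, members called ranged from 0 to 2 by covered bases between the phenotypes and in treated cells, from 4 to 9 and 0 to 5 by fold, and from 1 to 7 and 1 to 6 by width, with 0 to 1 for width under oxamate in parental cells. The fewest by fold came without resistant treated replicate 1. Over all genes, covered bases gave 806 to 2266 between the phenotypes, 3 to 33 untreated, 714 to 2585 treated, 78 to 899 for oxamate in parental cells and 0 to 149 for the difference between responses. Fold gave 2318 to 4326, 4 to 50, 918 to 3170, 0 to 117 and 0 to 2. Width gave 269 to 3115, 11 to 50, 181 to 2874, 156 to 558 and 32 to 225, with 2 to 7 for oxamate in resistant cells. Presence at gene ends by phenotype gave 0 to 59, the latter without parental untreated replicate 2.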
